A study of Homo sapiens with 14 samples.

Results

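TRIB1, TRIB2 and TRIB3 are the human tribbles pseudokinase genes, and their messenger RNA was followed through an RNA sequencing study of FOXA1 loss in 22Rv1, an established cell line from a human prostate cancer. They were chosen by name, as the rows TRIB1, TRIB2 and TRIB3 of all 4 count tables, and by their level in each group and their direction in each comparison. They are 3 of 57904 features in the knockdown table, of 57905 in each dTAG table and of 20243 in the R219S table. Because their values in these same comparisons entered the choice, their levels and fold changes are given as a description, with no test.

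The libraries fell into 7 groups of 2. shFOXA1 cells received a lentivirus that knocks down FOXA1, and shCtrl cells a control lentivirus, both with wild-type genotype. The cells labelled FOXA1_dTAG carry FOXA1 as a degradable fusion and were sequenced at 0 h, 1 h and 24 h, all with wild-type genotype. R219S cells carry a mutation at that residue of FOXA1 and WT cells do not, and both also carry FOXA1_dTAG. In a dTAG line a small-molecule degrader, once added, sends the tagged protein to the proteasome, so a change of FOXA1 protein need not appear in its messenger RNA. The labels say that the dTAG, R219S and WT cells received dTAG or the solvent DMSO, but not which of them received which. The shCtrl titles name the line 22Rv2, while the other labels of those libraries say 22Rv1. Nothing in the labels says that the 2 libraries of a group came from separate cultures, so every p-value measures only the spread between these libraries.

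Tribbles proteins have the fold of a protein kinase with little or no catalytic activity, and act as scaffolds. Their C-terminal tail binds the ubiquitin ligase COP1 and the kinase MEK1, and TRIB1 and TRIB2 bring C/EBP alpha to COP1 for degradation. TRIB3 binds AKT and is a known target of the transcription factors ATF4 and CHOP in the integrated stress response, which it in turn restrains. TRIB1 messenger RNA is short-lived in several human cell types, and tribbles genes are known for roles in leukaemia, lipid metabolism and stress signalling.

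Library totals ran from 21.6 M to 38.5 M counts. FOXA1 mRNA fell in shFOXA1, at 296.7 and 300.7 counts-per-million of the library total (CPM), against 406.4 and 437.3 CPM in shCtrl, a log2 fold change of -0.47 ± 0.062 (SE, adjusted p = 0.000275, edgeR). It did not pass the test at 1 h (-0.0057 ± 0.033, adjusted p = 0.941, edgeR), rose at 24 h (0.23 ± 0.039, adjusted p = 7.6e-06, edgeR) and fell in R219S (-0.57 ± 0.036, adjusted p = 1.28e-45, edgeR). All 8 luminal prostate markers stood at 1 CPM or more in every group. Their summed level was 2803 to 2995 CPM in shFOXA1 and 2242 to 2309 CPM in shCtrl, 4169 to 4177 CPM at 0 h, 4259 to 4277 CPM at 1 h and 4893 to 5033 CPM at 24 h, and 7885 to 8082 CPM in R219S and 7224 to 7275 CPM in WT. In R219S that sum rests mainly on the keratin KRT8, at 6579 ± 129 CPM with TMM scaling in R219S and 5451 ± 27 CPM in WT (SD, n = 2), while 5 of the 8 markers fell and 2 rose, with a median log2 fold change of -1.06. Of the 8 luminal markers, 5 rose and 1 fell in shFOXA1. At 1 h 5 rose and 2 fell, and at 24 h 5 rose and 3 fell. The 5 fibroblast markers summed to 505 to 517 CPM in R219S and 217 to 224 CPM in WT, with COL1A2 at 0 in both, and to at most 30.1 CPM elsewhere. Of the 4 fibroblast markers tested in R219S against WT, 3 rose and 1 fell. Leukocyte markers summed to at most 3.46 CPM, and the endothelial markers measured summed to at most 0.405 CPM. The part of these marker levels in the tribbles values was not tested, and in bulk libraries fewer cells of a type and less RNA per cell cannot be told apart.

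The tribbles genes differed in level by group, and each had its own order. TRIB1 averaged highest in shFOXA1, followed by shCtrl, dTAG 0 h, WT, R219S, dTAG 1 h and dTAG 24 h, and no neighbours in that order overlapped. TRIB2 was highest in WT, then in R219S, and then in 1 h, 24 h, shCtrl, 0 h and shFOXA1, each of which overlapped the next at 12 counts or fewer per library. TRIB3 was highest in R219S, then WT and shCtrl, which overlapped, then shFOXA1, dTAG 1 h, and dTAG 24 h and 0 h, which overlapped. The tables were counted separately, so an order across experiments sets levels side by side and was not tested.

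**Figure D1:**
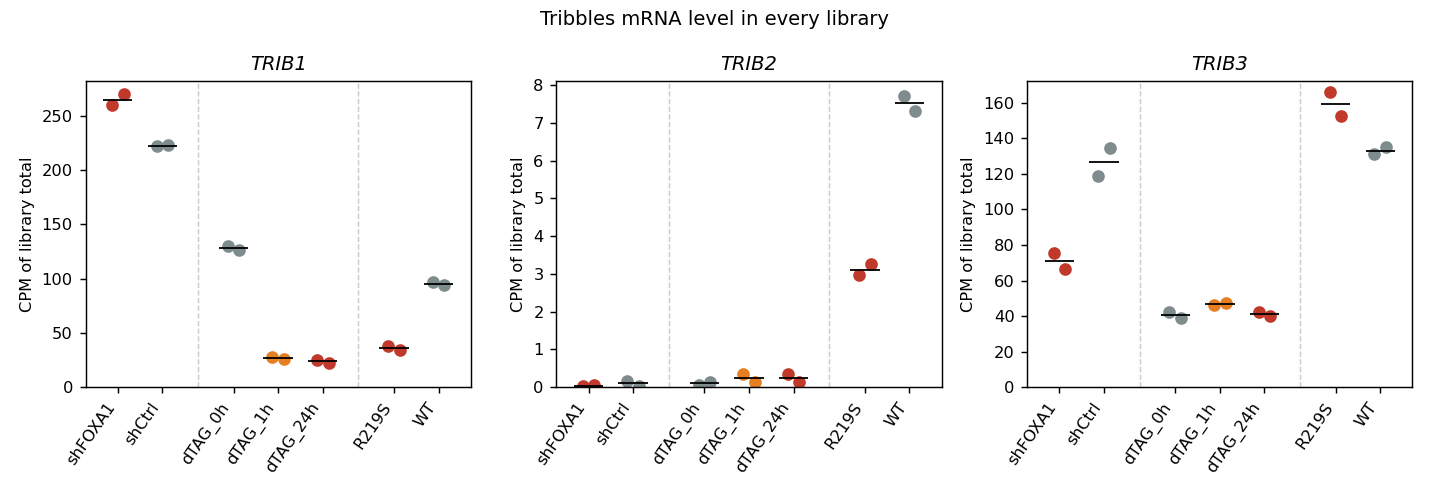
Level of TRIB1, TRIB2 and TRIB3 in CPM of the library total (vertical axes, from 0) in each of 14 libraries (points, 2 per group, horizontal bars are group means), with dashed lines between experiments. TRIB1 stands at 126.5 CPM or more at 0 h and at 27.4 CPM or less at 1 h and 24 h, TRIB2 is above 1 CPM in R219S and WT, and TRIB3 is lower in shFOXA1 than in shCtrl.

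A gene entered a fit when it passed edgeR's filter on low counts. TRIB1 and TRIB3 passed it in every comparison, and TRIB2 passed it in R219S against WT and in 24 h against 1 h. In shFOXA1 against shCtrl, 2 of 3 members did not overlap between groups, against 63.4% of all 19128 genes tested. At 1 h against 0 h all 3 did not overlap, TRIB2 by a margin of equal counts in libraries of unequal depth, against 56.4% of 19397 genes. At 24 h against 0 h only TRIB1 did not overlap (70.8% of 19607 genes), in R219S against WT all 3 did not (79.4% of 13990 genes), and at 24 h against 1 h TRIB1 and TRIB3 did not (70.8% of 20027 genes). The 1 h and 24 h comparisons share the same 0 h libraries. Nothing is read from these counts, since the comparisons were used to choose the genes.

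TRIB1 (ENSG00000173334, chromosome 8) encodes, like TRIB2, a protein that brings C/EBP alpha to COP1. At 1 h it had 27.4 and 25.6 CPM and at 24 h 24.8 and 22.7 CPM, against 130.3 and 126.5 CPM at 0 h. Every library at 1 h and 24 h was thus below both at 0 h. The log2 fold change was -2.28 ± 0.047 at 1 h and -2.48 ± 0.053 at 24 h (SE, n = 2 per group), which is 0.206 and 0.180 times the 0 h level. At 1 h 0.15% of all genes tested had a larger absolute log2 fold change than TRIB1, and at 24 h 0.847% had. Between 24 h and 1 h the difference was small, -0.20 ± 0.062.

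The 0 h libraries also had high levels of the rapid-response genes FOS and EGR1. FOS, a subunit of the transcription factor AP-1, had 412.3 and 391.1 CPM at 0 h, 8.78 and 8.11 CPM at 1 h, and 9.6 and 8.5 CPM at 24 h. In the other experiments FOS had 60.7 and 64.0 CPM in shFOXA1, 67.7 and 62.9 CPM in shCtrl, 20.3 and 22.4 CPM in R219S, and 26.3 and 26.5 CPM in WT. EGR1, a zinc-finger factor of the same kind of response, had 421.3 and 401.7 CPM at 0 h, 21.7 and 22.2 CPM at 1 h, and 23.8 and 25.5 CPM at 24 h. Elsewhere EGR1 had 84.8 and 84.5 CPM in shFOXA1, 121.6 and 117.9 CPM in shCtrl, 100.1 and 101.6 CPM in R219S, and 91.4 and 92.9 CPM in WT. FOS and EGR1 were higher in the 0 h libraries than in any other library, the same 0 h libraries where TRIB1 stood above its 1 h and 24 h levels. TRIB1 itself was not highest at 0 h, with a mean of 128.4 CPM, against 222.4 CPM in shCtrl and 264.6 CPM in shFOXA1. Of the 14 ERK feedback and rapid-response genes tested, 7 fell at 1 h. The part of the high FOS and EGR1 levels of the 0 h libraries in the TRIB1 difference was not tested.

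In R219S TRIB1 was also lower, with 37.7 and 34.0 CPM in R219S, against 97.1 and 93.6 CPM in WT. The groups did not overlap, and the log2 fold change was -1.40 ± 0.054, or 0.378 times the WT level. In the knockdown TRIB1 was higher, with 259.7 and 269.5 CPM in shFOXA1, against 222.1 and 222.6 CPM in shCtrl. There the log2 fold change was 0.28 ± 0.059, or 1.21 times, and 41.9% of all genes tested had a larger absolute change.

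**Figure D2:**
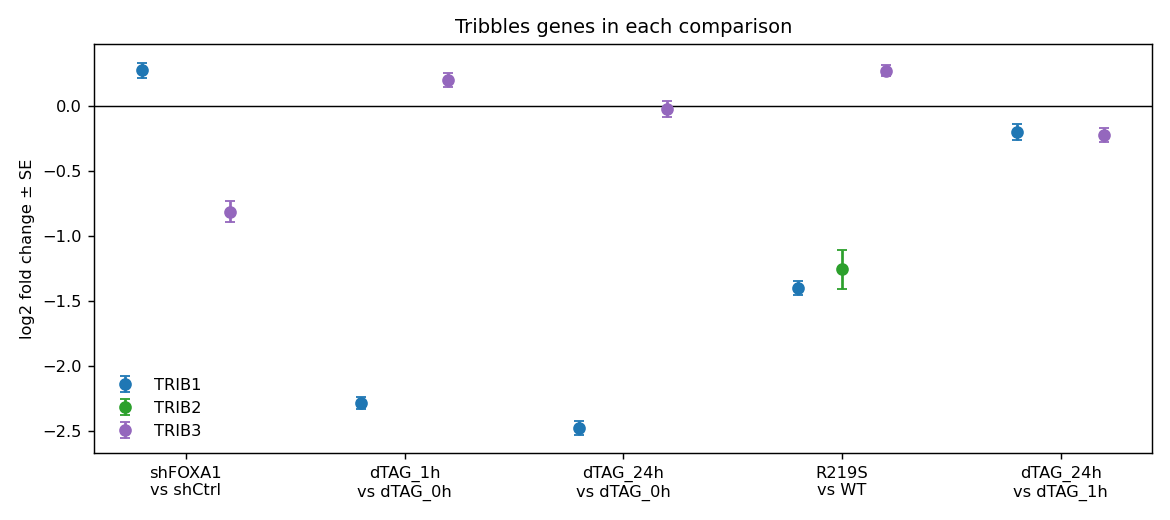
Log2 fold change (vertical axis) with its standard error (bars) of TRIB1, TRIB2 and TRIB3 in each comparison of 2 against 2 libraries, the 1 h and 24 h comparisons sharing the 0 h libraries. TRIB1 lies at 0.28 in the knockdown and between -2.48 and -1.40 in the 1 h, 24 h and R219S comparisons, while TRIB3 lies at -0.81 in the knockdown, and TRIB2 is drawn only for R219S against WT.

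TRIB2 (ENSG00000071575, chromosome 2), the member best known as an oncogene in mouse models of acute myeloid leukaemia, was above 1 CPM in R219S and WT alone. It had 2.97 and 3.25 CPM in R219S (64 and 84 counts), against 7.72 and 7.31 CPM in WT (297 and 193 counts). Both R219S libraries were below both WT libraries, with a log2 fold change of -1.26 ± 0.15. The ratio of the summed counts per library total was 0.413, with an exact 95% interval of 0.342 to 0.498 that covers counting error only. In the other groups a library held from 1 to 12 counts. The ratio was 0.44 (0.0734 to 1.93) for shFOXA1 over shCtrl, from 3 and 7 counts, and 2.49 (0.98 to 7.09) for 1 h over 0 h, from 17 and 7 counts. It was 2.33 (0.893 to 6.74) for 24 h over 0 h, from 15 and 7 counts, and 0.936 (0.435 to 1.99) for 24 h over 1 h. Each of these intervals includes a ratio of 1. They pool the counts of the 2 libraries in a group and cover counting error only. At these low counts the ratios are given as a description and not as a test. The gene of the microRNA MIR3125 lies within TRIB2 on the same strand, and the counting could give reads there to either.

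The promoter windows of TRIB2 and TRIB3 are shown because FOXA1 is a forkhead factor and TRIB3 a stress-response gene, so a reader can see which of their motifs the letters hold. The sequences are from RefSeq, build GRCh38.p14, 250 bases before to 50 after the gene's start, plus strand. Capitals mark the forkhead letters TGTTTAC, and a script searched both strands. The windows are chr2:12716686-12716985 for TRIB2 and chr20:381045-381344 for TRIB3.

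TRIB2: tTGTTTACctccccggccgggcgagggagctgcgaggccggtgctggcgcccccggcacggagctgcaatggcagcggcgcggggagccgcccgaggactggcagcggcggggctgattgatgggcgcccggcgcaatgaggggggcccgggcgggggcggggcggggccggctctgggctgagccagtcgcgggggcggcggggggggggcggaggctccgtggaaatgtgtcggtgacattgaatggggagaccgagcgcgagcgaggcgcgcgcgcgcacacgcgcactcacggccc
TRIB3: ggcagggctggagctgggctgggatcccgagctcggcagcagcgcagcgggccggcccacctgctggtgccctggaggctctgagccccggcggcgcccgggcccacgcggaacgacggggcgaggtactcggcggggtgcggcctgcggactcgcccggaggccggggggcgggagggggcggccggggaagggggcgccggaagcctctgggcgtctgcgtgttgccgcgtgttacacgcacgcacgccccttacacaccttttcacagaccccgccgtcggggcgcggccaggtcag

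The TRIB2 window holds the forkhead letters, at position -249 from the gene's start, close to the upstream edge of the window. Of 35116 promoter windows of this length, 3.42% hold them. None of the 3 RefSeq windows of TRIB3, which overlap one another, holds them. No window of either gene holds the letters TGACGTCA (a CRE, in 1.85% of all windows), TGANTCA (AP-1, 7.71%), TGATGNAA (the C/EBP-ATF composite element bound by ATF4 and its partners, 3.62%), TTGCNNAA (C/EBP, 10.5%) or CACGTG (an E-box, 7.26%). G and C make up 77.3% of the TRIB2 window. A match is a run of letters and no match says nothing of binding elsewhere.

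TRIB3 (ENSG00000101255, chromosome 20), the stress-inducible member that binds AKT, was lower in the knockdown. It had 75.4 and 66.5 CPM in shFOXA1, against 119.0 and 134.5 CPM in shCtrl, and the groups did not overlap. The log2 fold change was -0.81 ± 0.080, or 0.570 times, and 8.56% of all genes tested had a larger absolute change. In R219S it was higher, with 165.9 and 152.4 CPM in R219S, against 130.9 and 135.2 CPM in WT. There TRIB3 had a log2 fold change of 0.27 ± 0.042, and 47.0% of all genes tested had a larger absolute change. At 1 h it was slightly higher, with 46.1 and 47.3 CPM at 1 h, against 42.4 and 38.8 CPM at 0 h. That difference was 0.20 ± 0.054, and 37.1% of all genes tested had a larger absolute change. It was 0.093 after taking off the median of the 500 tested genes nearest to TRIB3 in transcript G and C content. At 24 h TRIB3 had 42.2 and 40.3 CPM, within the spread of the 0 h libraries, and the difference of -0.020 ± 0.061 turned to 0.023 when libraries were scaled by their totals alone. It was lower at 24 h than at 1 h by 0.22 on the log2 scale (-0.22 ± 0.057), with no overlap.

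Per kilobase of exon model, which allows levels to be compared between genes, the makeup of the family differed between groups. TRIB1 held 75.6% ± 2.1 of the summed tribbles level per length in shFOXA1 and 59.3% ± 2.0 in shCtrl (SD, n = 2). In the dTAG cells it held 72.4% ± 0.84 at 0 h, 31.9% ± 1.4 at 1 h and 32.2% ± 0.59 at 24 h, and TRIB3 held nearly all of the rest. TRIB1 held 15.5% ± 0.19 in R219S and 36.3% ± 1.1 in WT, where TRIB3 held 83.2% ± 0.036 in R219S and 61.1% ± 1.2 in WT. TRIB2 reached at most a mean of 2.58% ± 0.11, in WT, and held 1.22% ± 0.15 in R219S. The summed level was 84.6 ± 0.16 CPM per kilobase in shFOXA1 and 90.7 ± 3.3 in shCtrl. It was 42.9 ± 1.4 at 0 h, 20.1 ± 0.088 at 1 h and 17.8 ± 0.80 at 24 h, and 55.7 ± 3.4 in R219S and 63.4 ± 0.22 in WT. TRIB3 thus held more of the summed level than TRIB1 at 1 h, at 24 h, in R219S and in WT, and less in shFOXA1, in shCtrl and at 0 h.

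**Figure D3:**
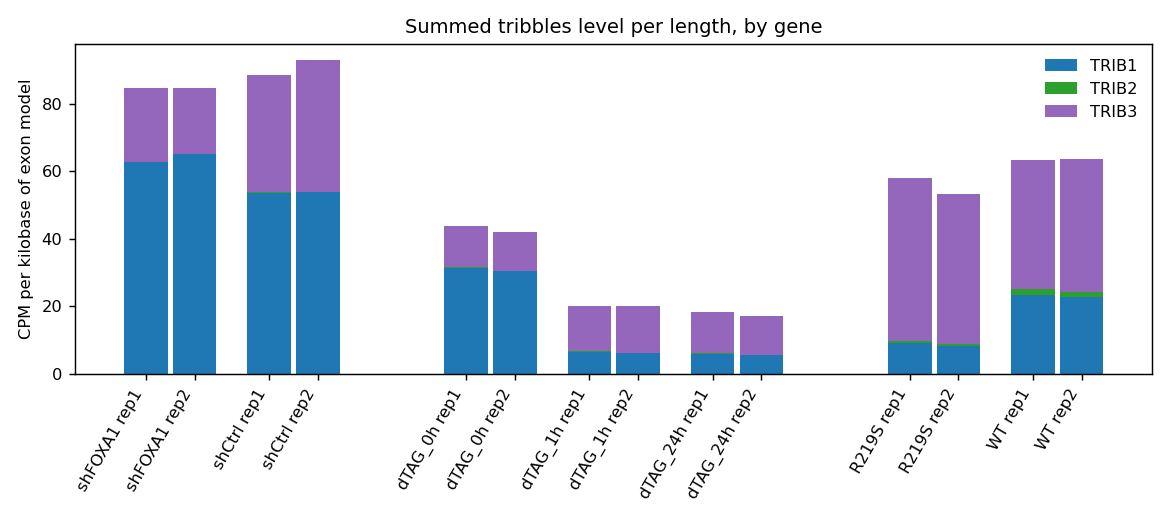
Level of TRIB1, TRIB2 and TRIB3 in CPM per kilobase of exon model, stacked for each library (bars start at 0, 2 libraries per group). The TRIB1 part makes up a mean 72.4% at 0 h and 31.9% at 1 h, and 15.5% in R219S and 36.3% in WT.

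Genes that work with the tribbles proteins were taken from 8 lists of 84 genes. A gene was called at an adjusted p under 0.05 over all genes tested with edgeR's quasi-likelihood test. The lists were chosen with earlier results of these data known. Counts of list genes are therefore a description beside the share over all genes, and no enrichment is read from them. In shFOXA1, 11 of 81 list genes tested rose and 34 fell, where 11.3% of all genes tested rose and 12.3% fell. Their median log2 fold change was -0.18, against 0.010 over all genes. At 1 h, 15 of 80 rose and 16 fell, where 10.7% of all genes rose and 9.12% fell, with a median of -0.017 and 0.00074 over all genes. At 24 h, 27 of 81 rose and 29 fell, where 22.1% of all genes rose and 24.8% fell, with a median of -0.0024 and 0.0056 over all genes. In R219S, 30 of 82 rose and 31 fell, where 30.5% of all genes rose and 31.6% fell, with a median of -0.040 and 0.0034 over all genes. At 24 h against 1 h, 27 of 81 rose and 22 fell, where 21.2% of all genes rose and 24.5% fell. The knockdown counts moved with single libraries: 7 list genes rose without shCtrl replicate 1, 17 rose without shFOXA1 replicate 1, and 17 fell without shCtrl replicate 2. At 1 h, 9 rose without 1 h replicate 1, and 7 rose with DESeq2.

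**Figure D4:**
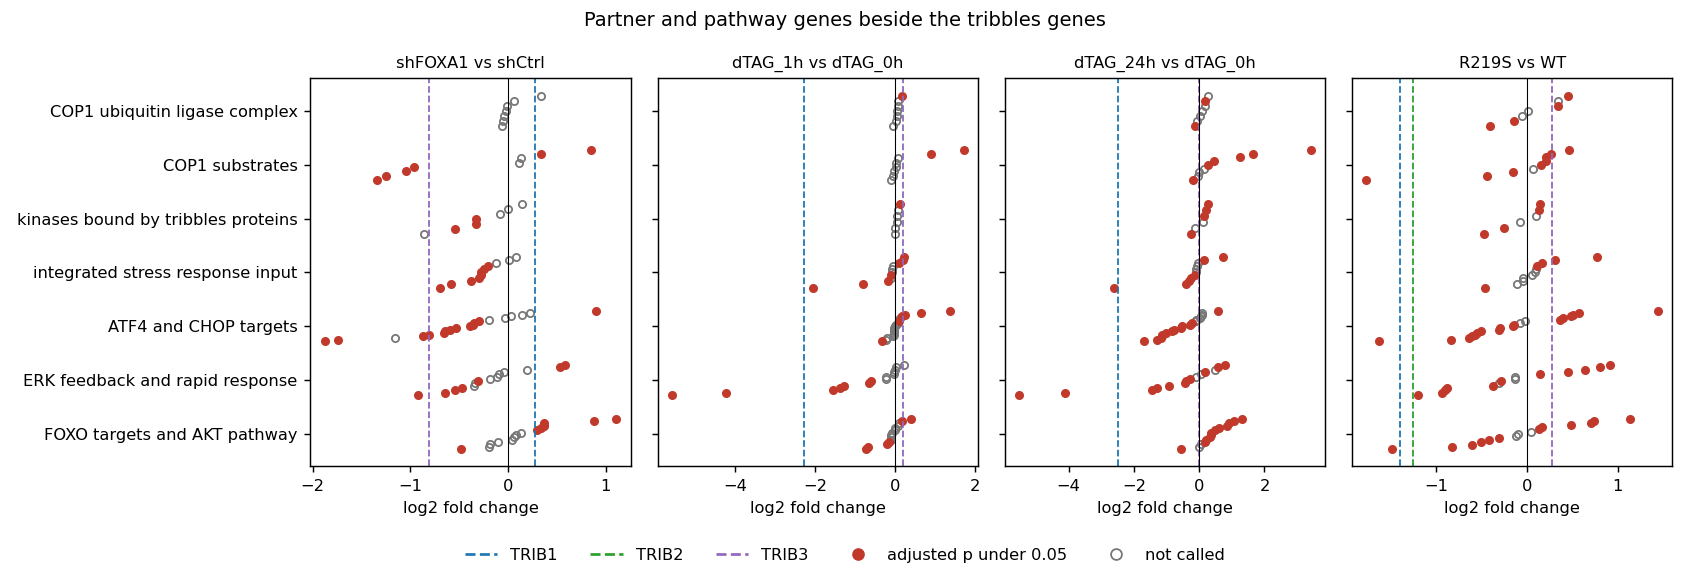
Log2 fold change (horizontal axes) of each tested gene of 7 partner and pathway lists (rows) in the 4 main comparisons (panels), filled red where the adjusted p is under 0.05, with dashed lines at TRIB1, TRIB2 and TRIB3. Most called ATF4 and CHOP target genes lie below 0 in the knockdown and at 24 h (12 of 19 fell in each), and FOS and EGR1 lie farthest below 0 at 1 h and 24 h.

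None of the 7 genes of the COP1 ubiquitin ligase complex was called in shFOXA1 with edgeR or DESeq2, 1 had an unadjusted p under 0.05, and 1 rose without shFOXA1 replicate 1. COP1 itself, which binds the tribbles tail, had -0.064 ± 0.074 (adjusted p = 0.581). At 1 h, 1 of 7 rose, the adaptor-associated DDA1 (0.16 ± 0.045, adjusted p = 0.00565), which lost its call without 1 h replicate 1 (adjusted p = 0.345), without 0 h replicate 1 (0.0777) and with DESeq2 (0.0963). At 24 h the scaffold adaptor DDB1 rose (0.19 ± 0.035, adjusted p = 3.42e-05), and the cullin CUL4B fell (-0.14 ± 0.045, adjusted p = 0.0117), though not without 24 h replicate 2 (adjusted p = 0.217), without 0 h replicate 2 (0.0553), with library totals only (0.0811) or with DESeq2 (0.0774). In R219S, 2 of 7 rose and 2 fell, where 30.5% of all genes tested rose and 31.6% fell. COP1 had 67.0 ± 0.33 CPM with TMM scaling in R219S and 48.8 ± 0.52 CPM in WT (SD, n = 2), a rise of 0.46 ± 0.053 (adjusted p = 3.96e-16). The cullin CUL4A rose (0.34 ± 0.041, adjusted p = 6.01e-15), CUL4B fell (-0.40 ± 0.047, adjusted p = 4.54e-16) and DDA1 fell (-0.14 ± 0.047, adjusted p = 0.00526, but 0.0521 without WT replicate 2). STK40, a pseudokinase related to the tribbles that also binds COP1, fell in shFOXA1 (-0.33 ± 0.085, adjusted p = 0.0157) and rose at 24 h (0.24 ± 0.051, adjusted p = 0.00022). Its knockdown call was lost without shCtrl replicate 2 (adjusted p = 0.239). At 1 h STK40 rose by 0.17 ± 0.047 (adjusted p = 0.00463), a call lost without either 1 h library, without 0 h replicate 2 and with DESeq2 (adjusted p = 0.0831), and in R219S it was not called (0.087 ± 0.047, adjusted p = 0.0907).

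The COP1 substrates include C/EBP factors and ETS factors. CEBPB, a factor of inflammation and differentiation, had 6.99 ± 0.22 CPM in shFOXA1 and 17.8 ± 3.2 CPM in shCtrl (TMM scaling), a fall of -1.35 ± 0.14 (adjusted p = 6.58e-05). At 1 h it had 27.9 ± 2.4 CPM, against 8.54 ± 0.12 CPM at 0 h, and it rose by 1.71 ± 0.087 (adjusted p = 1.52e-29). It also rose at 24 h (1.64 ± 0.087, adjusted p = 2.55e-16) and rose in R219S (0.46 ± 0.055, adjusted p = 1.78e-15). CEBPA, the classical TRIB1 and TRIB2 client at the protein level, was at 0 counts in both shFOXA1 libraries and at 4 and 0 counts in shCtrl. It had 16 and 37 counts at 24 h, against 0 and 5 at 0 h, where it entered the fit through the 24 h libraries alone, so no fold change is given. It had 2 and 13 counts in R219S, against 13 and 6 in WT. The ETS factors ETV1 and ETV5 fell in shFOXA1 (-1.25 ± 0.082, adjusted p = 3.32e-06, and -1.05 ± 0.093, adjusted p = 2.32e-05), where ETS2 rose (0.86 ± 0.11, adjusted p = 0.000254). ETS2 also rose at 1 h (0.90 ± 0.037, adjusted p = 8.57e-35) and 24 h (1.26 ± 0.043, adjusted p = 2.33e-21), and ETV1 fell in R219S (-1.77 ± 0.082, adjusted p = 3.38e-78). JUN, the other AP-1 subunit named here, rose in shFOXA1 (0.34 ± 0.083, adjusted p = 0.0142, but 0.0951 without shCtrl replicate 1) and fell at 24 h (-0.19 ± 0.036, adjusted p = 4.01e-05). The fatty acid synthesis enzymes ACACA and ACACB moved apart in R219S (0.26 ± 0.039, adjusted p = 1.36e-10, and -0.44 ± 0.089, adjusted p = 4.02e-06). By count, 2 of 8 substrates tested rose and 4 fell in shFOXA1, and 2 of 8 rose and 0 fell at 1 h. At 24 h, 5 of 9 rose and 1 fell (4 of 8 rose with a filter of 1 CPM in 2 libraries, which leaves out CEBPA). In R219S, 5 of 9 rose and 3 fell (3 rose with DESeq2, and fewer rose without R219S replicate 2 or WT replicate 2). Among all genes tested, 11.3% rose and 12.3% fell in shFOXA1, and 10.7% and 9.12% at 1 h. These shares were 22.1% and 24.8% at 24 h, and 30.5% and 31.6% in R219S.

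Of the kinases that tribbles proteins bind, 3 of 7 fell in shFOXA1 and 0 rose. MAP2K1, which encodes MEK1, had 38.8 ± 0.18 CPM in shFOXA1 and 56.7 ± 4.6 CPM in shCtrl, a fall of -0.55 ± 0.078 (adjusted p = 0.000437). The falls of MAP2K4 (-0.33 ± 0.079, adjusted p = 0.011) and MAP3K11 (-0.33 ± 0.086, adjusted p = 0.0179), which act upstream of JNK, were lost without shCtrl replicate 2 (adjusted p = 0.16 and 0.13). MAP2K1 was not called at 1 h (0.053 ± 0.054, adjusted p = 0.561) or at 24 h (-0.14 ± 0.059, adjusted p = 0.053), and fell in R219S (-0.25 ± 0.053, adjusted p = 6.35e-06). AKT1, the TRIB3 partner, was not called in shFOXA1 (-0.078 ± 0.061, adjusted p = 0.397) or at 1 h (0.0012 ± 0.033, adjusted p = 0.987). It fell at 24 h (-0.26 ± 0.040, adjusted p = 2.49e-06) and in R219S (-0.47 ± 0.040, adjusted p = 1.27e-28), while its paralog AKT2 rose (0.20 ± 0.038 at 24 h, adjusted p = 5.61e-05, and 0.15 ± 0.039 in R219S, adjusted p = 0.000504). By count, 1 of 6 rose and 0 fell at 1 h, 3 of 6 rose and 1 fell at 24 h, and 2 of 6 rose and 2 fell in R219S. Over all genes tested, 11.3% rose and 12.3% fell in shFOXA1, and 10.7% and 9.12% at 1 h. The shares were 22.1% and 24.8% at 24 h, and 30.5% and 31.6% in R219S. With DESeq2 the rises of AKT2 at 1 h (adjusted p = 0.0505), MAP3K11 at 24 h (0.16) and MAP2K7 in R219S (0.111) were not called.

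The list for the integrated stress response, which lies upstream of TRIB3, holds sensor genes, an eIF2 subunit, ATF4 and stress-induced factors. In the knockdown 8 of these 11 genes fell and 0 rose, with a median of -0.28, where 11.3% of all genes tested rose and 12.3% fell. Fewer of them fell when either shCtrl library was left out. The activity of the response was not measured, and its part in the TRIB3 difference was not tested. CEBPG, a dimer partner of ATF4, fell by -0.69 ± 0.086 (adjusted p = 0.00032), and DDIT3, which encodes CHOP, had 43.1 ± 2.2 CPM in shFOXA1 and 64.8 ± 6.3 CPM in shCtrl (-0.59 ± 0.081, adjusted p = 0.000367). ATF4 fell by less (-0.29 ± 0.062, adjusted p = 0.00525), as did EIF2AK3, which encodes the sensor PERK (-0.38 ± 0.11, adjusted p = 0.0297), and both calls were lost without shCtrl replicate 2 (adjusted p = 0.13 and 0.403). At 1 h, 3 of 11 rose and 4 fell. ATF3, a stress and rapid-response factor, fell by -2.07 ± 0.042 at 1 h (adjusted p = 5.72e-58) and -2.61 ± 0.049 at 24 h (adjusted p = 9.19e-28), and PPP1R15A, which encodes the phosphatase subunit GADD34, fell by -0.82 ± 0.041 (adjusted p = 2.58e-30) and -0.32 ± 0.044 (adjusted p = 3.43e-07). ATF4 fell slightly at 1 h (-0.11 ± 0.028, adjusted p = 0.00279, lost without either 1 h library) and was not called at 24 h (-0.051 ± 0.036, adjusted p = 0.255). NUPR1, a small stress-induced chromatin protein, rose at 1 h (0.23 ± 0.036, adjusted p = 3.35e-07) and at 24 h (0.72 ± 0.040, adjusted p = 6.88e-16). DDIT3 was not called at 1 h (-0.12 ± 0.048, adjusted p = 0.0815). At 24 h, 2 of 11 rose and 5 fell, among them EIF2S1, the alpha subunit of eIF2 (-0.41 ± 0.041, adjusted p = 6.38e-10), and DDIT3 (-0.14 ± 0.051, adjusted p = 0.0236, but 0.143 with DESeq2 and 0.236 without 0 h replicate 2). In R219S, 4 of 11 rose and 1 fell, where 30.5% of all genes tested rose and 31.6% fell. DDIT3 had 41.9 ± 1.6 CPM in R219S and 24.5 ± 1.7 CPM in WT (0.77 ± 0.067, adjusted p = 6e-27), EIF2AK3 rose (0.31 ± 0.087, adjusted p = 0.00106) and the sensor gene EIF2AK4 fell (-0.46 ± 0.046, adjusted p = 3.16e-21). ATF4 rose by 0.11 ± 0.037 in R219S (adjusted p = 0.00732), a call lost without either R219S library and without WT replicate 2 (adjusted p = 0.117).

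Other ATF4 and CHOP targets are the genes TRIB3 is usually grouped with. In shFOXA1, 12 of 19 fell and 1 rose, with a median of -0.39, and 7 fell without shCtrl replicate 2. CHAC1, an enzyme that degrades glutathione, had 0.845 ± 0.35 CPM in shFOXA1 and 2.85 ± 0.43 CPM in shCtrl (-1.75 ± 0.30, adjusted p = 0.00145). PHGDH, the first enzyme of serine synthesis, fell by -0.87 ± 0.10 (adjusted p = 0.000356), and DDIT4, an inhibitor of mTORC1, rose by 0.90 ± 0.12 (adjusted p = 0.000239). SLC7A11, the cystine transporter, had -1.88 ± 0.25 (adjusted p = 0.0217), a call lost without shCtrl replicate 1 (0.163) and replicate 2 (0.189). At 1 h, 5 of 19 rose (3 without either 1 h library and 2 with DESeq2) and 1 fell, with DDIT4 at 27.6 ± 1.6 CPM, against 10.7 ± 0.47 CPM at 0 h (1.37 ± 0.082, adjusted p = 3.46e-25), while CHAC1 rose by 0.63 ± 0.17 (adjusted p = 0.00377, but 0.078 with DESeq2). At 24 h, 12 of 19 fell and 1 rose, where 22.1% of all genes tested rose and 24.8% fell, and TRIB3 overlapped its 0 h level. PSAT1, the second enzyme of serine synthesis, had 20.7 ± 1.1 CPM at 24 h and 67.5 ± 2.6 CPM at 0 h (-1.70 ± 0.062, adjusted p = 1.46e-20), and MTHFD2, of mitochondrial folate metabolism, fell by -1.28 ± 0.051 (adjusted p = 1.71e-19). Set against 1 h, 13 of 19 fell at 24 h and 0 rose. In R219S, 6 of 19 rose and 11 fell, where 30.5% of all genes tested rose and 31.6% fell. DDIT4 (1.44 ± 0.052, adjusted p = 5.98e-112) and the endoplasmic reticulum oxidase ERO1A (0.57 ± 0.049, adjusted p = 4.66e-28) rose. The lipoprotein receptor VLDLR (-1.63 ± 0.074, adjusted p = 2.85e-80) and the death receptor TNFRSF10B (-0.83 ± 0.039, adjusted p = 2.15e-77) fell.

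MEK1 drives the ERK pathway, whose feedback and rapid-response genes form the next list. At 1 h, 7 of 14 fell and 0 rose, with a median of -0.42, where 10.7% of all genes tested rose and 9.12% fell. The largest falls were those of FOS (-5.58 ± 0.048, adjusted p = 2.56e-84), EGR1 (-4.23 ± 0.041, adjusted p = 4.07e-83) and the ERK phosphatase DUSP5 (-1.55 ± 0.19, adjusted p = 2.02e-10). A link between these genes and the TRIB1 difference was not tested. At 24 h, 8 of 14 fell and 3 rose, the risers including the sprouty inhibitors SPRY1 (0.78 ± 0.10, adjusted p = 2.11e-07) and SPRY4 (0.57 ± 0.12, adjusted p = 0.000262). Set against 1 h, 6 of 14 rose at 24 h and 0 fell, with a median of 0.19. In R219S, 6 of 14 fell and 5 rose, where 31.6% of all genes tested fell and 30.5% rose. The phosphatase DUSP4 had 73.4 ± 0.39 CPM in R219S and 169.0 ± 1.8 CPM in WT (-1.20 ± 0.045, adjusted p = 1.11e-105), and SPRY4 fell (-0.90 ± 0.064, adjusted p = 4.35e-38), while SPRY1 (0.91 ± 0.097, adjusted p = 7.99e-19) and the growth regulator MYC (0.64 ± 0.039, adjusted p = 9.56e-50) rose. In shFOXA1, 5 of 14 fell (3 without shCtrl replicate 2), SPRY4 most (-0.92 ± 0.13, adjusted p = 0.000412), and 2 rose, MYC (0.59 ± 0.066, adjusted p = 0.000105) and SPRY1 (0.54 ± 0.12, adjusted p = 0.00874).

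FOXO factors are switched off by AKT, and TRIB2 is known to restrain FOXO3 in human melanoma. At 24 h, 11 of 14 FOXO targets and AKT pathway genes tested rose and 1 fell, where 22.1% of all genes tested rose and 24.8% fell. Of the 14, 13 rose at 24 h against 1 h, where 21.2% of all genes tested rose. TRIB2 had 15 counts at 24 h and 7 at 0 h, and a link between it and these genes was not tested. FOXO1 had 39.7 ± 3.1 CPM at 24 h and 15.8 ± 1.9 CPM at 0 h (1.33 ± 0.080, adjusted p = 4.9e-15), and the insulin receptor gene INSR had 164 ± 6.7 CPM at 24 h and 87.2 ± 0.99 CPM at 0 h (0.91 ± 0.043, adjusted p = 1.13e-17). PIK3IP1, an inhibitor of PI3K, rose at 24 h (1.08 ± 0.056, adjusted p = 1.5e-16), at 1 h (0.39 ± 0.059, adjusted p = 1.31e-07) and in shFOXA1 (1.11 ± 0.097, adjusted p = 2.09e-05). IRS2, the adaptor of the insulin receptor, fell at 1 h (-0.73 ± 0.045, adjusted p = 1.82e-23), at 24 h (-0.57 ± 0.049, adjusted p = 2.47e-11) and in R219S (-1.49 ± 0.046, adjusted p = 4.73e-139). SESN3, a sestrin that restrains mTORC1, rose in shFOXA1 (0.88 ± 0.065, adjusted p = 7.73e-06) and in R219S (1.14 ± 0.038, adjusted p = 5.82e-124), and fell at 1 h (-0.21 ± 0.033, adjusted p = 4.68e-07). By count, 6 of 14 rose (fewer without shCtrl replicate 1) and 1 fell in shFOXA1, where 11.3% of all genes tested rose and 12.3% fell. There were 2 of 14 that rose and 4 that fell at 1 h (10.7% and 9.12% of all genes), and 6 of 15 that rose and 6 that fell in R219S (30.5% and 31.6%).

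The genes nearest to each member in profile were found by the root-mean-square difference of log2(CPM + 1), centred within each of the 3 experiments, over the 14 libraries and 11887 other genes (11888 for TRIB2). Nearest to TRIB1 were PHLDA1 (0.385), ATF3 (0.433), OSR2 (0.445), NR4A1 (0.455) and NAT1 (0.465), where the median gene was at 0.819 and a flat profile at 0.815. PHLDA1, an early-response gene, had log2 fold changes of -1.28 at 1 h, -1.45 at 24 h and -0.94 in R219S, and -0.18 in the knockdown. NR4A1, an orphan nuclear receptor of the rapid response, had -0.92, -1.15 and -0.90 in the same order, and -0.25 in the knockdown, where TRIB1 had 0.28. The ATF3 values were -2.07, -2.61 and 0.10 in that order, and -0.28 in the knockdown. OSR2 had -1.37, -1.51 and -0.57, and -0.14 in the knockdown. NAT1 had -0.67, -1.28 and -1.61, and 0.18 ± 0.14 (SE) in the knockdown. Of these listed genes, NAT1 alone had the sign of TRIB1 in the knockdown, and it was not called there (adjusted p = 0.396, edgeR).

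Nearest to TRIB3 were SCD (0.0703), ZIC2 (0.0763), CYSTM1 (0.09), PMAIP1 (0.0959) and CEBPG (0.0989), against 0.279 for the median gene and 0.243 for a flat profile. The genes nearest to each member were picked for likeness over these same libraries, so close values follow from the choice. SCD, the stearoyl-CoA desaturase, had -0.83 in the knockdown, 0.27 at 1 h, -0.0026 at 24 h and 0.21 in R219S. TRIB3 had -0.81, 0.20, -0.020 and 0.27 in that order. ZIC2 had -0.76, 0.34, 0.091 and 0.33, CYSTM1 had -0.92, -0.069, -0.10 and 0.38, and CEBPG had -0.69, 0.19, -0.097 and 0.058. PMAIP1, which encodes the BH3-only protein NOXA, had -0.77, 0.31, 0.056 and 0.19 in that order. Among those nearest to TRIB2 were GRB10 (0.101), SBK1 (0.106), TGFB1 (0.106) and SLC43A2 (0.107), with 0.331 for the median gene. With TRIB2 near 0 in the other experiments, this order rests mainly on R219S against WT, where GRB10 had -0.92 and TRIB2 -1.26.

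**Figure D5:**
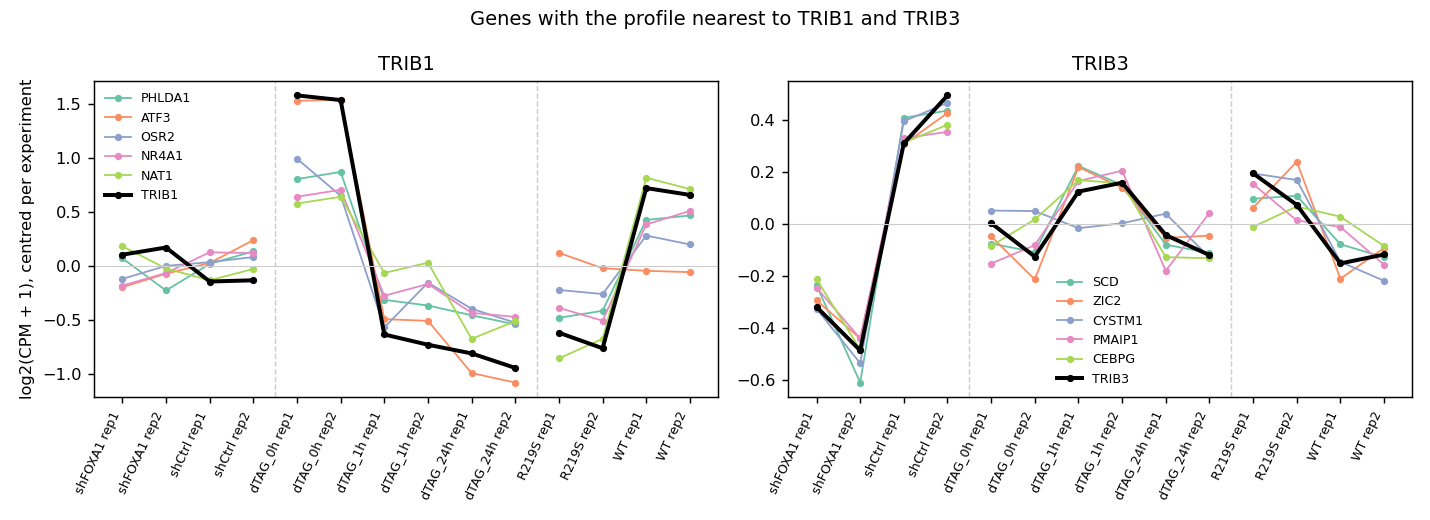
Profiles of log2(CPM + 1) centred within each experiment (vertical axes) over the 14 libraries (horizontal axes, dashed lines between experiments) for TRIB1 and TRIB3 (black) and the 5 genes nearest to each (colours). TRIB1 and ATF3 share a high level at 0 h but differ in R219S against WT (-1.40 and 0.10). SCD was picked as the gene nearest to TRIB3 over these libraries.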

How the data were processed

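The authors deposited raw read counts per gene for 14 libraries in 4 tables, whole numbers with no normalization. Per the submitters' processing notes, STAR, featureCounts, DESeq2 and hg19 were used, and versions, annotation and strand setting are not given in the sources used here. Both dTAG tables hold the 0 h libraries, identical in all 57905 features. Identifiers were matched to symbols through GENCODE 29 (52338 of 57905). Of the names for R219S and WT, 26 had become dates, which stayed in the fits unnamed. ACACA and TXNIP matched only there, and PECAM1 nowhere. Per-sample columns not used numbered 0.

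Each comparison was fitted on the deposited counts in R 4.3.3 by edgeR 4.0.16 (its default filter on low counts filterByExpr, TMM scaling, a robust quasi-likelihood test, Benjamini-Hochberg adjustment), and 24 h against 1 h in a joint fit of the 6 dTAG libraries. DESeq2 1.42.0, other scalings, other filters, a replicate block, a correction for G and C content and leaving out each library were alternatives. Standard errors are approximate, from the fold change and F. The script was tested on simulated data. Levels are CPM of the library total unless TMM scaling is named, and levels with a standard deviation for list genes have TMM scaling.

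The members and gene lists were chosen with earlier results of these data known. Named list genes are a fixed set (COP1, STK40, CEBPA, CEBPB, AKT1, MAP2K1, ATF4 and DDIT3) and others from up to 3 called genes per list, comparison and direction with the largest absolute log2 fold change. FOS and EGR1 levels outside the dTAG cells were added after the values were seen. A gene near TRIB2 in profile is not reported here. Counting intervals are exact at 95% and cover counting error only.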

Additional observations from a re-analysis of the deposited data

Results flagged for a closer look

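TRIB1 was marked because its libraries moved in opposite directions under different ways of changing FOXA1. Its log2 fold change was 0.28 in shFOXA1 against shCtrl, with both shFOXA1 libraries above both shCtrl libraries. It was -2.28 at 1 h and -2.48 at 24 h against 0 h, and -1.40 in R219S against WT, with every library below those it was set against. TRIB3 was marked as well, with a log2 fold change of -0.81 in shFOXA1, 0.20 at 1 h and 0.27 in R219S. Its 1 h value was 0.093 relative to genes near it in G and C content, and at 24 h it overlapped the 0 h libraries (-0.020). A larger absolute change than that of TRIB3 was seen in 37.1% of all genes tested at 1 h and 47.0% in R219S. The differences between these fold changes were not tested, and they come from separately counted experiments.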

How the results depend on the processing

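Every fold change of TRIB1 kept its direction under each alternative run, and so did those of TRIB2 in R219S and of TRIB3 in shFOXA1, in R219S, at 1 h and at 24 h against 1 h. Leaving out a library gave TRIB1 0.25 to 0.32 in shFOXA1, -2.33 to -2.23 at 1 h, -2.55 to -2.41 at 24 h and -1.47 to -1.32 in R219S. TRIB3 at 1 h was 0.093 relative to the 500 genes nearest in G and C content, where TRIB1 was -2.29. TRIB3 at 24 h changed sign with library totals only (0.023) and ran from -0.085 to 0.040 when a library was left out, positive without 0 h replicate 1 and without 24 h replicate 2 (0.020). TRIB2 at 24 h against 1 h ran from -1.03 to 0.62, with 0.41 without 24 h replicate 2 and 0.62 without 1 h replicate 1. TRIB2 was below the filter in the other comparisons, so no alternatives were compared there. The mean TRIB1 level in shCtrl was 220.4 CPM with TMM scaling and 222.4 CPM of the library total, from the same counts. The causes of the other shifts were not tested.

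Leaving out a library, the list genes that rose in shFOXA1 ranged from 7 to 17, those that fell from 17 to 37 and all genes called from 1713 to 6793, where 4506 were called with all libraries. The lowest total came without shCtrl replicate 2, 2421 came without shCtrl replicate 1, and the highest came without shFOXA1 replicate 1. At 1 h, list genes that rose ranged from 9 to 15 and all genes called from 2232 to 3422, where 3850 were called with all libraries. DESeq2 gave 7 and 1809 there. In all, 22 of 45 called list genes lost their call without some library in shFOXA1, 10 of 31 at 1 h, 7 of 56 at 24 h and 11 of 61 in R219S. TRIB2 counts of 12 or fewer limit what can be seen outside R219S and WT.

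The replicate numbers are not said to pair libraries. Deviations of same-numbered libraries correlated at 0.012 in the knockdown, 0.013 at 1 h, 0.16 at 24 h and -0.040 in R219S. With the replicate block, TRIB1 was 0.28 in shFOXA1, -2.28 at 1 h, -2.48 at 24 h and -1.40 in R219S, TRIB3 was -0.81, 0.20, -0.019 and 0.27, and TRIB2 in R219S was -1.25. The block left the counts of list genes within 1.5 times, at 12 that rose and 35 that fell in shFOXA1. Counts of 0 to 2 within a single list changed under several of these alternatives.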
